A study of Arabidopsis thaliana with 6 samples.

Results

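EXLA1, EXLA2 and EXPB1 are 3 Arabidopsis genes of the expansin superfamily that lie outside the alpha-expansins. The members were the probe sets whose annotation names one of these genes and no other, which gave 1 probe set for each gene, or 3 of the 22746 probe sets tested. On these Affymetrix-type arrays a probe set joins several short probes for the same transcript into 1 intensity. The genes are EXLA1 (AT3G45970, expansin-like A1, on chromosome 3), EXLA2 (AT4G38400, expansin-like A2, on chromosome 4) and EXPB1 (AT2G20750, beta-expansin 1, on chromosome 2). They were picked because their intensities had been seen to differ between PBZ, GA and control arrays. Their values in these comparisons are therefore given as a description, with a standard error (SE) but no p-value of their own. Counts of the 3 genes under p-value thresholds are given beside the whole array, and nothing is read from them.

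Expansins are secreted wall proteins that let cellulose and the polysaccharides around it slide past each other under turgor, without cutting the chains. The superfamily has an alpha branch (EXPA), a beta branch (EXPB) and the expansin-like branches EXLA and EXLB. Alpha-expansins, and beta-expansins of grasses, loosen walls in tests on isolated tissue, whereas no such activity is established for expansin-like proteins, which have the same pair of domains. Gibberellins are hormones that drive leaf and stem growth: bound to a GID1 receptor, they bring about the breakdown of DELLA proteins, which restrain growth.

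The arrays measured messenger RNA in whole rosettes of accession Col-0, and every group, control included, carried the transgene 35S:HF-RPL18B, a tagged ribosomal protein under a promoter active in most tissues. GA plants received a spray of 1 mL of GA3, a gibberellin, at 50 µM on alternate days. PBZ plants were given 10 mL of paclobutrazol, an inhibitor of gibberellin synthesis, at 50 mg/L (0.5 mg per pot) by watering at day 14. Control plants were untreated, and neither they nor the PBZ plants are described as sprayed. Each group had 2 arrays, named as biological replicates with no further detail, from plants grown in soil under 16 h of light and harvested at day 27 by the titles, or day 25 by another label. The labels give total RNA, while their protocol describes both total and ribosome-bound RNA from 1 lysate.

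The arrays were alike in brightness, with median intensities from 32.4 to 33.9, and 26.8% to 29.4% of the values on an array lay under 10. The rosette label was checked on a list of 12 leaf photosynthesis genes, of which 2 had a probe set of their own. Rubisco activase (RCA) had intensities from 3858 to 4741 and the photosystem I subunit PSAN from 2453 to 3052 over the 6 arrays. The root hair expansins EXPA7 and EXPA18, from a list of 8 root genes, had 2.50 to 17.4. The flower and dividing-cell lists had 0 measured genes by this annotation. In whole rosettes, fewer cells of a type and less RNA per cell cannot be told apart.

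EXLA1 had the widest range of the 3 genes. Its intensity was 580 and 387 in the GA arrays, 44.1 and 39.3 in the PBZ arrays, and 89.6 and 96.4 in the control arrays. Both GA arrays stood far above the others, both PBZ arrays lay below both control arrays, and no groups overlapped. The means were 483 ± 137 in GA, 41.7 ± 3.39 in PBZ and 93.0 ± 4.81 in control rosettes (SD, n = 2 each), so the ratio of mean intensities was 11.6 for GA over PBZ and 5.20 for GA over control. On the scale of log2(intensity + 10), used for all log2 values here because it damps noise in dim probe sets at the price of understating their changes, the difference was 3.23 for GA minus PBZ, 2.23 for GA minus control and -0.995 for PBZ minus control (SE 0.20 each). The GA arrays were 0.57 apart on this scale, and the gaps from GA to control and from control to PBZ were both wider than the gap between replicates in any group.

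EXLA2, which in Arabidopsis has been linked to the response to the fungus Botrytis cinerea, was dim. Its intensity was 73.3 and 46.9 in GA, 12.1 and 4.10 in PBZ, and 31.8 and 29.1 in control rosettes. The groups stood in the same order as for EXLA1 and did not overlap, and the PBZ arrays lay near the dim end of the array. The means were 60.1 ± 18.7 in GA, 8.10 ± 5.66 in PBZ and 30.4 ± 1.91 in control (SD, n = 2 each). The log2 difference was 1.96 for GA minus PBZ, 0.77 for GA minus control and -1.20 for PBZ minus control (SE 0.27 each). On this scale the gaps between neighbouring groups, 0.77 and 1.20, were wider than those between replicates, 0.55 in GA, 0.65 in PBZ and 0.10 in control. This comparison of gaps depends on the added constant: with 1, GA minus control was 0.92 with an SE of 0.51. The PBZ values lay within the 2.50 to 17.4 of the root hair expansins, and the table holds no detection calls, so EXLA2 was not shown to be above background in PBZ. The size of its differences from PBZ, and its rank by them, depend on the added constant: GA minus PBZ ran from 1.19 with 32 to 2.87 with 1. GA minus control was 0.49 without GA replicate 1 and 1.04 without GA replicate 2.

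EXPB1 encodes a member of the beta branch, whose best-known relatives are the group 1 pollen allergens of grasses. Its intensity was 43.3 and 41.1 in GA, 14.5 and 17.3 in PBZ, and 34.4 and 40.7 in control rosettes. PBZ alone stood apart: the lower GA array and the higher control array were nearly level. The means were 42.2 ± 1.56 in GA, 15.9 ± 1.98 in PBZ and 37.5 ± 4.45 in control (SD, n = 2 each). The log2 difference was 1.01 for GA minus PBZ, 0.14 for GA minus control and -0.88 for PBZ minus control (SE 0.13 each). The gap of 0.14 between GA and control was within the gap of 0.19 between the control replicates, so these neighbours did not differ beyond their spread. It was 0.04 without control replicate 1 and 0.23 without control replicate 2. The PBZ values, too, lay within the range of the root hair expansins, and the PBZ minus control difference ran from -1.24 with a floor of 10 to -0.54 with a constant of 32.

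**Figure D1:**
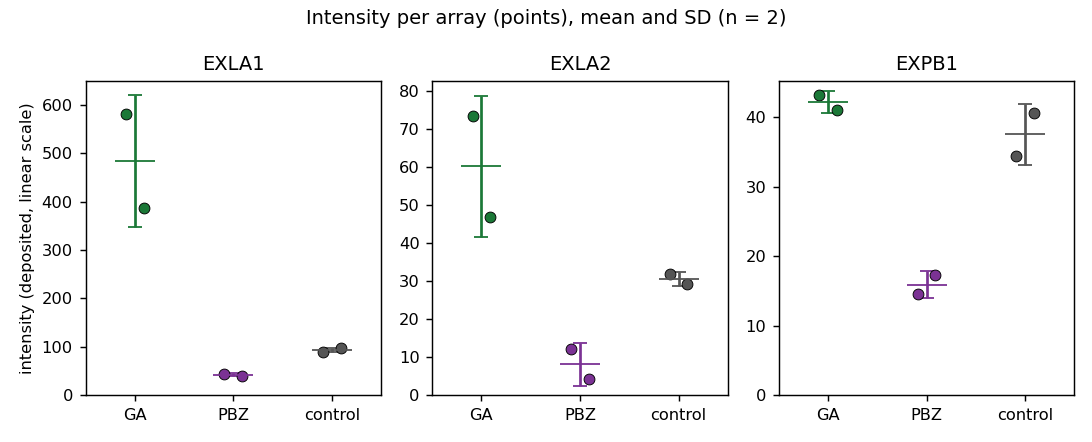
Deposited intensity (linear scale, vertical axis from 0) of EXLA1, EXLA2 and EXPB1 in GA, PBZ and control rosettes; points are arrays, the bar is the mean and the whiskers the SD of 2 arrays. GA stands above control for EXLA1 and EXLA2 and nearly level with it for EXPB1 (means of 42.2 in GA and 37.5 in control), and PBZ is lowest in all 3 panels.

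The order of the means, GA over control over PBZ, was thus shared, though GA and control did not differ beyond their spread for EXPB1. The part of the range that lay above control was not alike. Of the log2 difference between GA and PBZ, 69.2% (SE 6.69) lay above the control level for EXLA1, 39.1% (SE 15.5) for EXLA2 and 13.6% (SE 9.63) for EXPB1, the SE coming from the spread within groups. Over 15 alternative ways of processing, leaving out each array included, these shares ran from 66.2% to 72.6% for EXLA1, from 29.2% to 46.9% for EXLA2 and from 4.12% to 23.0% for EXPB1. The differences between the genes were not tested, since the genes were picked on these values. EXLA1 and EXPB1 had PBZ falls of like size, -0.995 and -0.88, and differed mainly in the GA arrays.

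Seen against the whole array, EXLA1 had the 5th highest log2 difference of 22746 probe sets in GA against PBZ, the 13th highest in GA against control and the 132nd lowest in PBZ against control. EXLA2 ranked 61, 329 and 78 in the same comparisons. EXPB1 ranked 392 and 5075 from the top in GA against PBZ and GA against control, and 216 from the bottom in PBZ against control.

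In PBZ against control, the arrays did not overlap and lay lower for 3 of 3 genes, as they did for 18.5% of all probe sets. In the fit over all probe sets (limma with Benjamini-Hochberg adjustment), 0 of 3 passed an adjusted p under 0.05, as 0.514% of probe sets did, and 3 of 3 had an unadjusted p under 0.05, as 13.7% did. Without the dimmest 40% of probe sets, 3 of 3 passed, while the count over the array rose from 117 to 562. This filter shortens the list over which p-values are adjusted and also changes the variance estimate. The SE was then 0.19 for EXLA1, 0.24 for EXLA2 and 0.14 for EXPB1. In GA against control, the arrays lay higher without overlap for 3 of 3 genes and for 16.8% of all probe sets. Here 0 of 3 passed, as did 0% of probe sets, and 2 of 3 had an unadjusted p under 0.05 (8.49% of all). In that comparison 1 of 3 passed with an intensity trend in the variance or without dim probe sets, where 51 and 201 probe sets passed over the array. In GA against PBZ, the arrays lay higher without overlap for 3 of 3 genes and for 19.1% of all probe sets, and 3 of 3 passed in the fit, against 2.97% of all. This count dropped to 0 when any 1 of the GA or PBZ arrays was left out, and to 1 when either control array was. For this comparison, keeping both control arrays out of the fit is the same calculation as leaving out either, so it adds no further result. The count was also 1 when the constant added was 1, and when a floor of 10 replaced it. Since the genes were picked on these comparisons, nothing is read from the counts. All GA arrays above all control arrays, with all PBZ arrays below them, was a pattern of 755 probe sets, 3.32% of those tested.

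**Figure D2:**
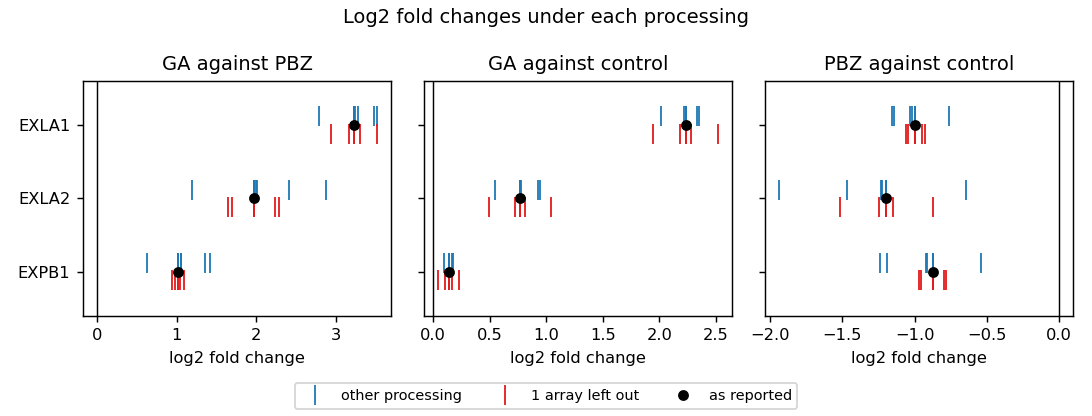
Log2 difference (horizontal axes) of EXLA1, EXLA2 and EXPB1 in each comparison as reported (black points), with 1 array left out (red ticks) and under other processing (blue ticks). All ticks lie on the same side of 0 as the reported value, and EXLA2 has the widest spread, from 1.19 to 2.87 in GA against PBZ.

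The other beta-expansins and expansin-like genes were EXPB2 to EXPB6, EXLA3 and EXLB1, of which 5 of 7 had a probe set of their own. In limma's fit over all probe sets, 0 of 5 passed in any comparison; 0 had an unadjusted p under 0.05 in PBZ against control, 1 in GA against control and 3 in GA against PBZ, beside 13.7%, 8.49% and 18% of all probe sets. Their median log2 difference was -0.06 in PBZ against control (0.03 over all probe sets), 0.22 in GA against control (-0.02) and -0.10 in GA against PBZ (-0.05).

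EXLA3 (AT3G45960) is the closest relative by name and lies next to EXLA1 among the protein-coding genes of the RefSeq annotation. Its intensity was 12.4 and 5.70 in GA, 1.80 and 1.10 in PBZ, and 6.30 and 4.40 in control rosettes. The order of its means was that of EXLA1, but GA and control arrays overlapped and all but 1 of its values lay under 10. The log2 difference was 0.71 for GA minus PBZ (SE 0.19, limma adjusted p = 0.131), 0.29 for GA minus control and -0.42 for PBZ minus control (adjusted p = 0.780 and 0.416).

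EXPB3 (AT4G28250), another beta-expansin, was ordered the other way from EXPB1. Its intensity was 116 and 122 in GA, 197 and 238 in PBZ, and 165 and 197 in control rosettes. The GA arrays were lowest and separate from the rest, and PBZ and control met at 197. The log2 difference was -0.82 for GA minus PBZ (SE 0.15, limma adjusted p = 0.0532) and -0.56 for GA minus control (SE 0.15, adjusted p = 0.357), and neither passed. The difference between GA and PBZ did pass with an intensity trend, with an added constant of 32 and without dim probe sets (adjusted p = 0.0164, 0.0303 and 0.00928). EXLB1 (AT4G17030) had log2 differences of 0.62 for GA minus PBZ, 0.41 for GA minus control and -0.21 for PBZ minus control (adjusted p = 0.226, 0.713 and 0.746). EXPB2 and EXPB5 were dim, with intensities from 5.10 to 19.7, and none of their adjusted p-values was under 0.642.

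Among the alpha-expansins, 10 of 26 were measured. The 1 that passed was EXPA8 (AT2G40610), in PBZ against control (0.514% of all probe sets passed) and GA against PBZ (2.97%). Its intensity was 392 and 442 in GA, 57.1 and 88.9 in PBZ, and 699 and 638 in control rosettes. EXPA8 therefore fell in PBZ, as a log2 difference of -3.06 (SE 0.21, limma adjusted p = 0.00935), and was higher in GA than in PBZ (2.39, SE 0.21, adjusted p = 0.00917), while its GA arrays lay below control (-0.67, SE 0.21, adjusted p = 0.423). The fall in PBZ no longer passed when any 1 of the 6 arrays was left out, and the difference between GA and PBZ did not pass without GA replicate 1 or without GA replicate 2. EXLA1 and EXLA2 stood above control in GA, on the other side from EXPA8; that difference between genes was not tested. The alpha-expansins EXPA16 and EXPA4 had log2 differences of -0.99 and -0.78 for GA minus PBZ (SE 0.22 and 0.25, adjusted p = 0.0831 and 0.175) and 0.83 and 0.56 for PBZ minus control (adjusted p = 0.203 and 0.391). Without dim probe sets, the difference of EXPA16 between GA and PBZ passed (limma adjusted p = 0.0141). The remaining alpha-expansins, EXPA7, EXPA9, EXPA15, EXPA18, EXPA20, EXPA21 and EXPA24, had adjusted p-values of 0.407 and above in every comparison. Of the 15 other superfamily genes measured, 0 had all GA arrays above and all PBZ arrays below the control arrays. Over all probe sets this share was 3.32%, so 0 of 15 is near it and nothing is read from the count.

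**Figure D3:**
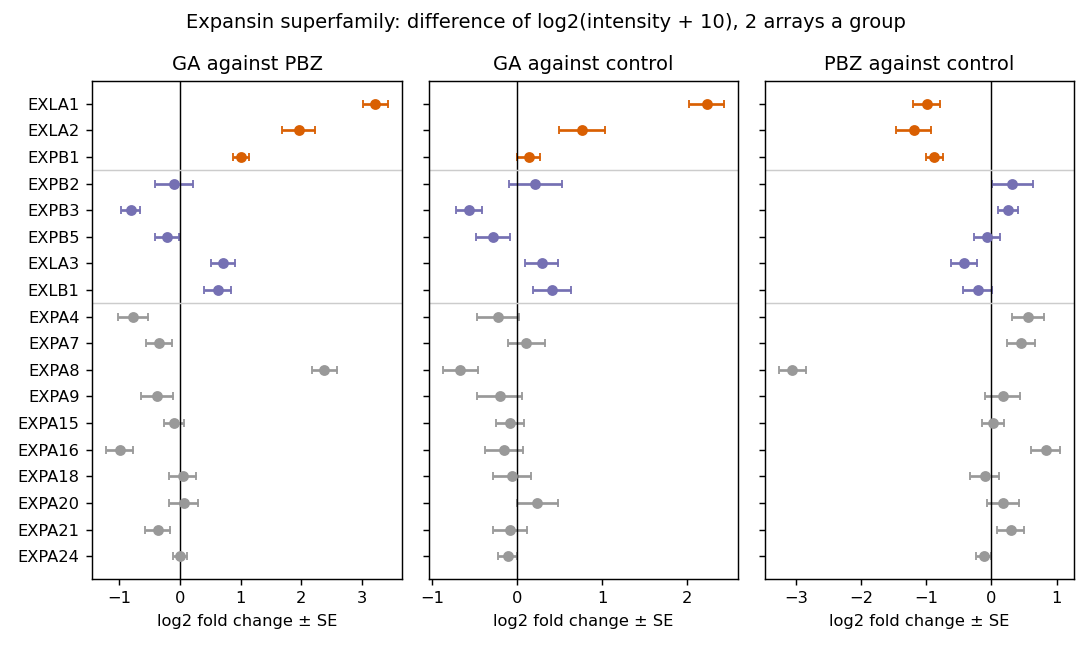
Log2 differences of log2(intensity + 10) with their SE (horizontal axes) for the 18 measured expansin superfamily genes: EXLA1, EXLA2 and EXPB1 in orange, other beta-expansins and expansin-like genes in purple, alpha-expansins in grey, with 2 arrays a group. EXLA1 lies far to the right in GA against control at 2.23, and EXPA8 far to the left in PBZ against control at -3.06.

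Xyloglucan endotransglucosylases (XTH) cut and rejoin the xyloglucan chains of the wall, and 10 of 33 were measured. XTH16 (AT3G23730) and XTH33 (AT1G10550) were the 2 that passed, both higher in GA than in PBZ, where 2.97% of all probe sets passed. Both showed the array order of EXLA1, EXLA2 and EXPB1. XTH16 had 104 and 119 in GA, 38.0 and 45.1 in PBZ, and 69.8 and 74.1 in control rosettes, a log2 difference of 1.24 for GA minus PBZ (SE 0.14, limma adjusted p = 0.0139). XTH33 had 31.5 and 35.3 in GA, 7.50 and 11.9 in PBZ, and 18.5 and 14.9 in control rosettes, a log2 difference of 1.15 (SE 0.16, adjusted p = 0.0244). Neither passed when any 1 of the GA or PBZ arrays was left out, and 1 of the 2 did without control replicate 1 or control replicate 2. Around the control level, XTH16 had 0.57 above and -0.67 below, and XTH33 0.70 above and -0.44 below. None of these differences from control passed, with limma adjusted p-values between 0.126 and 0.312. The fall of XTH16 in PBZ did pass without dim probe sets (adjusted p = 0.0319).

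The other XTH genes went different ways and did not pass in the main fit. XTH18 had log2 differences of 1.36 for GA minus control and 1.15 for GA minus PBZ (adjusted p = 0.182 and 0.0657), XTH27, listed as EXGT-A3, had 0.47 for GA minus control (adjusted p = 0.391), and XTH29 had 0.41 for PBZ minus control (adjusted p = 0.249). XTH32 had -0.85 for GA minus PBZ and 0.46 for PBZ minus control (adjusted p = 0.0631 and 0.322). The median over the 10 genes was 0.28 in GA against PBZ, 0.28 in GA against control and -0.06 in PBZ against control. Of 9 genes of primary wall cellulose synthesis, COB alone was measured, with log2 differences from -0.14 to 0.20 that did not pass, and of 3 of secondary wall cellulose synthesis 0 were measured.

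Of 15 listed genes of gibberellin synthesis, breakdown and perception, 4 were measured, all of them of perception. Of these, 2 passed, both in GA against PBZ, where 2.97% of all probe sets passed. The receptor genes GID1B and GID1A fell in GA relative to PBZ (log2 differences -1.79 and -1.04, SE 0.21 and 0.13, limma adjusted p = 0.0156 and 0.0182), though 0 passed when any 1 of the GA or PBZ arrays was left out and 1 without control replicate 1 or control replicate 2. GID1B had 4.40 and 9.20 in GA, 42.4 and 52.9 in PBZ, and 10.6 and 16.4 in control rosettes, the reverse of the order of EXLA1, EXLA2 and EXPB1. In the same comparison SLY1, an F-box protein that marks DELLA proteins for breakdown, had -0.97 and GID1C had -0.38 (adjusted p = 0.0802 and 0.448). SLY1 passed there with an intensity trend and without dim probe sets (limma adjusted p = 0.0379 and 0.0137). In PBZ against control the 4 differences were 0.02 to 1.30 and 0 passed (limma, lowest adjusted p = 0.0788). Of the 4, 3 had an unadjusted p under 0.05 (13.7% of all probe sets). GID1A passed with an intensity trend, and GID1A and GID1B with an added constant of 32 or without dim probe sets. In GA against control the 4 differences were -0.49 to -0.20, with 0 passing (limma, lowest adjusted p = 0.612). Here 0 had an unadjusted p under 0.05 (8.49% of all probe sets).

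Touch and early stress genes respond within minutes to handling, wounding or spraying, and 6 of 14 were measured. Their summed intensity was 821 and 762 in GA, 113 and 103 in PBZ, and 89.0 and 243 in control rosettes. Of these sums 1 gene, ZAT10, made up 400 and 412 in GA, 42.8 and 43.0 in PBZ, and 38.8 and 164 in control rosettes. In GA against PBZ 5 of 6 rose: CML37 and CML38, calmodulin-like proteins, ZAT10 (listed as STZ), a zinc finger repressor, WRKY53, a transcription factor tied to leaf senescence, and PUB23, a ubiquitin ligase, with log2 differences from 1.56 to 2.97 (limma adjusted p from 0.0115 to 0.0492). This count was 0 when any 1 of the GA or PBZ arrays was left out and 4 without control replicate 1 or control replicate 2. The sixth, CML39 (AT1G76640), had -0.36 (adjusted p = 0.411) and intensities under 10 in all arrays. Over all probe sets, 2.97% passed in GA against PBZ. In GA against control 0 of 6 passed (limma, lowest adjusted p = 0.109), as did 0% of all probe sets. There 5 of 6 had an unadjusted p under 0.05 (8.49% of all probe sets). With an intensity trend 2 of 6 passed, and without dim probe sets 3. The median log2 difference was 2.03. In PBZ against control the median was 0.03 and 1 of 6 had an unadjusted p under 0.05 (13.7% of all probe sets). Control means of CML37, CML38, PUB23 and CML39 were 6.55, 11.9, 9.15 and 1.70, so the added constant damps any fall in PBZ. For 5 of 6, all but CML39, both GA arrays lay above both control arrays, as they did for 16.8% of all probe sets. The same held for EXLA1, EXLA2 and, by a small margin, EXPB1. The part of this in the result was not tested. Since GA plants alone are described as sprayed, the spray and the GA3 in it cannot be told apart. The leaf genes RCA and PSAN had log2 differences from -0.10 to -0.00299 over the comparisons, and EXPA7 and EXPA18 from -0.35 to 0.46, with no adjusted p under 0.422.

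For each gene, the genes most alike over the 6 arrays were taken as the 3 with the smallest root mean square difference between log2 profiles, each profile centred on its own mean, among 1023 probe sets of 1 symbol-bearing gene with a mean intensity of at least 20. They are a description, without a p, since the arrays fall into 3 groups.

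Nearest to EXLA1 was EXO (AT4G08950), a gene named EXORDIUM that is tied to brassinosteroid-driven growth, at 0.20 log2 units. EXO had intensities of 405 and 237 in GA, 37.0 and 30.1 in PBZ, and 59.0 and 87.7 in control rosettes. GA replicate 1 exceeded GA replicate 2 for both genes, and the order of the groups was the same. The next were WRKY53 and CML38, of the touch and early stress list, at 0.49 and 0.53. They shared the height of the GA arrays with EXLA1, but a fall in PBZ was not seen. WRKY53 averaged 30.5 ± 2.55 in PBZ and 35.6 ± 16.0 in control rosettes (SD, n = 2 each). Its control arrays, at 24.3 and 46.9, lay on either side of its PBZ arrays. CML38 averaged 14.4 ± 0.07 in PBZ and 11.9 ± 6.51 in control rosettes (SD, n = 2 each). Its control arrays, at 7.30 and 16.5, lay within the range of the root hair expansins, so a fall below them could hardly show.

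EXLA2 was nearest to the tau-class glutathione transferase genes GSTU27 (AT3G43800) and GSTU26 (AT1G17190) and to RALFL22, a gene for a peptide signal of the rapid alkalinization factor family, at 0.30 to 0.31 log2 units. GSTU27 had intensities of 798 and 724 in GA, 227 and 258 in PBZ, and 506 and 511 in control rosettes. RALFL22 had 388 and 302 in GA, 89.3 and 113 in PBZ, and 208 and 193 in control rosettes. Both stood above control in GA and below it in PBZ, as EXLA2 did. GSTU26 had 92.3 and 75.6 in GA, 33.0 and 21.5 in PBZ, and 79.8 and 69.8 in control rosettes, so that its GA and control arrays overlapped.

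EXPB1 was nearest to TCP15 (AT1G69690), a transcription factor of the TCP family that acts in leaf and internode growth, at 0.07 log2 units. TCP15 had intensities of 237 and 229 in GA, 104 and 124 in PBZ, and 194 and 200 in control rosettes. The calmodulin-binding protein gene IQD21 (AT3G49260), at 0.08, had 166 and 156 in GA, 78.8 and 79.7 in PBZ, and 153 and 151 in control rosettes. PRA1.B6 (AT5G07110), of a family of membrane trafficking proteins, lay at 0.11. For each of these genes, as for EXPB1, the PBZ arrays were far below the others, and on the log2(intensity + 10) scale GA averaged at most 1.17-fold above control. Each member was farther from the other members than from its own 3 genes most alike. The distances were 0.67 for EXLA1 and EXLA2, 1.03 for EXLA1 and EXPB1 and 0.49 for EXLA2 and EXPB1. Since the genes most alike were picked for their small distances, nothing is read from this. With mean absolute differences in place of root mean squares, 2 of 3 genes were the same for each member, and ZAT10, CSLA03 and CML42 replaced CML38, GSTU26 and PRA1.B6.

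**Figure D4:**
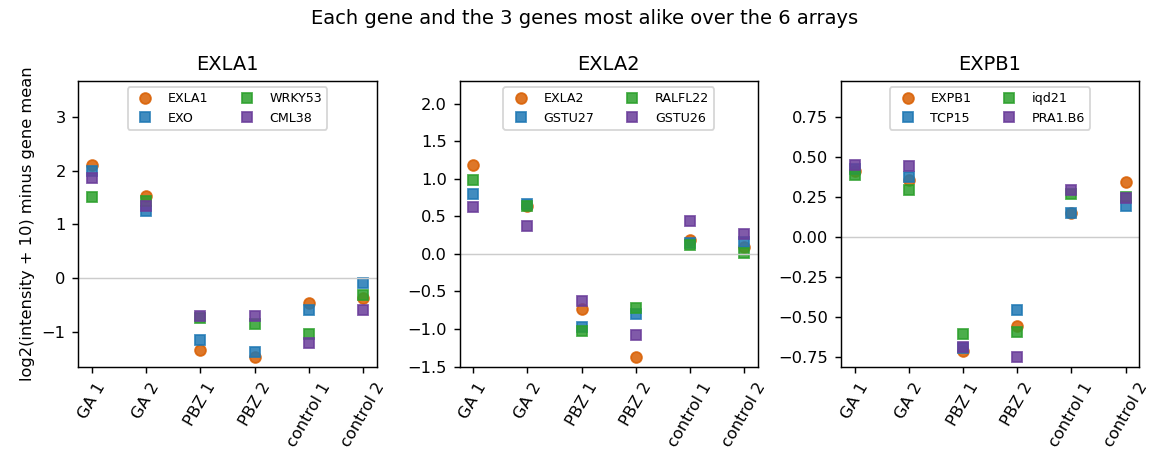
Log2(intensity + 10) minus each gene's own mean (vertical axis) on the 6 arrays (horizontal axis), for EXLA1, EXLA2 and EXPB1 (circles) and the 3 genes most alike to each (squares). The EXLA1 panel is split between GA and the rest, the EXPB1 panel between PBZ and the rest, and EXLA2 itself has control in between, while the control and GA arrays of GSTU26 overlap.

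Genes beside the members on the chromosome were read where a probe set names them. The neighbours of EXPB1, AT2G20740 and AT2G20760, had log2 differences from -0.43 to 0.51 over the comparisons, and none passed (limma adjusted p of 0.154 and above). Together with EXLA3 beside EXLA1, no measured neighbour passed in a comparison.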

How the data were processed

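Per the submitters' processing notes, RMA and the affy package were used, with no version given. The deposited table holds linear intensities, which RMA does not give, so background correction and probe summary are not given in the sources used here. The mean after trimming 2% at each end was 100.01 on every array. Median intensities were 32.55 and 32.7 (GA), 33.8 and 33.9 (PBZ) and 32.4 and 33.2 (control). No gene was centred, and the scale and direction follow from the values.

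After 64 control probe sets were left out, log2(intensity + 10) was fitted with limma 3.58.1 in R 4.3.3, with a mean per group (3 residual and 3.07 prior degrees of freedom), eBayes, two-sided tests and Benjamini-Hochberg adjustment over 22746 probe sets. Of these, 13513 name 1 gene, 503 several and 8730 are unnamed here; 13436 matched the RefSeq table (TAIR10.1) by Entrez number. The brightest probe set stood for a gene: 38 of 139 genes on 11 lists had one, and the others may lie among unnamed probe sets. No coordinates or sequences are given. P-values rest on the spread between the 2 arrays of each of the 3 groups, combined by eBayes with the spread over all probe sets.

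Members and lists were chosen with earlier results of these data known. The text names every listed gene that passed, and per list and comparison up to 4 with the smallest p; the beta-expansins and expansin-like genes; and the genes most alike. EXPA9, EXPA15, the chromosomal neighbours, CSLA03 and CML42 were named beyond that rule. The procedure was tested on simulated data. Alternatives were other pseudocounts, a floor, 2 normalizations, an intensity trend, filters, the replicate block, fits of 2 groups and leaving out each array.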

Additional observations from a re-analysis of the deposited data

How the results depend on the processing

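The log2 differences of EXLA1, EXLA2 and EXPB1 kept their direction in all 144 values recomputed over 16 alternatives, and 126 of them moved by less than the SD between replicates. The replicate block, the intensity trend, the filters and the fits of 2 groups cannot change these differences. Nor can leaving out an array of the group not compared. Both counts include such unchanged values. The added constant moved most of the values that moved by more than this SD. With 1, 32 and a floor of 10 in its place, GA minus PBZ was 3.48, 2.78 and 3.51 for EXLA1, 2.87, 1.19 and 2.41 for EXLA2, and 1.36, 0.63 and 1.41 for EXPB1. In the same order, PBZ minus control was -1.19, -0.54 and -1.24 for EXPB1, and for EXLA2 it was -1.94 and -0.65 with 1 and 32. Leaving out 1 array gave 1.95 to 2.52 for EXLA1 in GA minus control and 2.94 to 3.51 in GA minus PBZ. In GA minus control it gave 0.49 to 1.04 for EXLA2 and 0.04 to 0.23 for EXPB1.

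The numbers of passing probe sets depended on the processing far more. For PBZ against control, GA against control and GA against PBZ, 117, 0 and 675 passed. With an intensity trend it was 333, 51 and 1040, and without dim probe sets 562, 201 and 1368. With an added constant of 1, 0 passed in PBZ against control and 94 in GA against PBZ, and with 32, 248 in PBZ against control; with a floor of 10, 4 in GA against control and 292 in GA against PBZ. Fits of the groups compared alone gave 4 in PBZ against control and 284 in GA against PBZ. Leaving out 1 array gave 0 to 4 in PBZ against control and 0 to 284 in GA against PBZ; the lone array left in a group is then assumed to vary like the others. Of the listed genes, 1, 0 and 10 passed; in PBZ against control it was 0 for the groups alone, with a constant of 1 and with a floor of 10, 2 with a trend, 3 with a constant of 32 and 4 without dim probe sets. In GA against control it was 2 with a trend and 3 without dim probe sets, and in GA against PBZ 0 with a constant of 1 and 3 with a floor of 10. Leaving out 1 array gave 0 listed genes in PBZ against control and 0 to 7 in GA against PBZ.

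Replicate numbers pair the samples only by name: correlations of the differences between replicates ran from -0.000766 to 0.0313 between groups. With the replicate block, 47, 1 and 391 probe sets passed, and 0, 0 and 3 of the 3 members, from which nothing is read since they were picked on these comparisons. The dimness of EXLA2 and EXPB1 in PBZ and the 2 arrays a group limit the precision.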
